A study of Mus musculus with 8 samples.

Results

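The genes described here encode the working parts of the lysosome: the acid hydrolases in its lumen, the proteins of its membrane and the proton pump that keeps it acidic. The group held 37 genes chosen by name, and the question was which of them rose with the macrophage content of epididymal white adipose tissue (WAT), which stayed level, and which differed between mice labelled Agt Tg and Wt. Of the 37, 32 were detected well enough to be compared, among 8285 genes compared in all. In these 8 arrays, 12 of the 32 rose with macrophage content (37.5%, beside 4.38% of all genes). Ctsk, the collagen-degrading cathepsin K, and Lipa, the lysosomal acid lipase, led them. Between the groups, 0 of the 32 passed the test, and 0 of all genes. The count of 12 fell to 0 when the 2 arrays farthest from the median macrophage score were left out, and also to 0 when the mean of adipocyte markers was a further term. Over all genes the count of rising genes fell from 363 to 1 in each case. The slopes nearest to 0 belonged to the proton pump genes Atp6ap1 and Atp6v0d1, the calcium channel gene Mcoln1 and the membrane glycoprotein gene Lamp1. No gene was shown to stay level.

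Lysosomes break down proteins, glycans, lipids and nucleic acids with enzymes that work at acid pH. The vacuolar ATPase (V-ATPase) pumps protons into the lumen, and a coat of glycosylated membrane proteins shields the membrane from its own enzymes. Every nucleated cell carries this basic set, and many of its genes share a short promoter element, the CLEAR element, that is bound by transcription factors of the MiT/TFE family. In fat, the macrophages that clear dead adipocytes are the classical professional degraders: they take up lipid and debris, and the cells called lipid-associated macrophages carry high levels of lysosomal and lipid-handling genes. Adipocytes themselves also use lysosomes for autophagy and for breaking down stored lipid.

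Gene expression was measured on 8 Illumina mouse BeadChip arrays, 1 for each sample of epididymal WAT. All mice were C57BL6/J males, 4 months old and kept on a low fat diet. The labels assign 4 samples to transgenic mice that overexpress angiotensinogen, the precursor of the angiotensin peptides, in white fat (Agt Tg), and the other 4 to their wild type counterparts (Wt). The transgene is driven by aP2, the promoter of Fabp4, which the study notes is active in macrophages as well as in fat. The sources used here do not give whether the 8 samples are 8 different mice, so a p-value measures the spread between samples, which may be technical. Values are log2 intensities after background correction and quantile normalization, p-values come from limma, and adjusted p is the Benjamini-Hochberg value over all kept probes.

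Between 11253 and 12284 of 25696 probes were detected per array, and correlations between arrays within a group were 0.956 to 0.986. Agt itself checked the labels and was not higher on the arrays labelled Agt Tg, where it read 6.74, 8.80, 6.39 and 8.39 for replicates 1 to 4, against 7.50, 8.87, 8.11 and 8.09 on the Wt arrays. Directions between the groups therefore rest on the labels alone. Whether this Agt probe can detect the transgene's RNA is not stated in the labels or methods.

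Macrophage content was followed with a score, the mean log2 intensity of 21 detected macrophage marker genes out of 26 listed, none of which is among the 37. Of 7 defining markers in the list, 6 entered the score and 5 were detected on every array. The score was 9.05, 7.86, 9.02 and 8.13 on replicates 1 to 4 labelled Agt Tg and 8.93, 8.39, 8.65 and 8.82 on the Wt replicates. Replicates 2 and 4 labelled Agt Tg were the 2 lowest of all arrays and replicates 1 and 3 of the same group the 2 highest, so that most of the spread lay within that group. The group means, 8.52 ± 0.61 for Agt Tg and 8.70 ± 0.24 for Wt (SD, n = 4 each), differed by -0.18, with an exact two-sided permutation p = 0.6 where 4 arrays against 4 cannot go below 0.0286. In whole tissue, more macrophages and more marker RNA per macrophage cannot be told apart, and both are meant by macrophage content here.

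Each gene was then fitted with the score and the group as terms. The slope gives the change in a gene's log2 intensity per log2 unit of score, so that a slope of 1 means that the gene and the marker mean changed by the same factor. A gene was called rising when its slope was positive at an adjusted p under 0.05, and level when the 95% interval of its slope lay wholly between -0.25 and 0.25. Of the 21 markers in the score, 12 rose on the score that they themselves form, and 19 had a positive slope. Mertk (-0.57 ± 0.25, SE) and Lyve1 (-0.53 ± 0.26, SE) had negative slopes. Cd163, at 0.27 ± 0.23 (SE), did not pass, so the score does not follow every macrophage marker alike.

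Of the 37 genes, 5 gave no comparison. Cd68, a macrophage-rich membrane glycoprotein, and Npc1, the membrane partner of Npc2 in cholesterol export, have no probe named for them in the annotation used here. Ctsd, the aspartic protease cathepsin D, was detected on 0 of 4 arrays labelled Agt Tg and 1 of 4 Wt arrays, with raw intensities between 109 and 163. Gla, alpha-galactosidase A, and Atp6v0d2, the d2 subunit of the V-ATPase known from osteoclasts and macrophages, were detected on none of the 8 arrays, with raw intensities of 103 to 140 and 114 to 139. These probes give no level for their genes. Of the 32 compared, 30 were detected on all 8 arrays, Ctss on 3 arrays labelled Agt Tg and 4 Wt arrays, and Naglu on 2 and 3.

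Rising was called for 12 of the 32 genes (37.5%), where 4.38% of all 8285 genes compared were called rising, and falling for 0 of the 32, where 2.28% of all genes were. At unadjusted p under 0.05, 1 of the 32 fell in limma, Smpd1 (9.46% of all genes). The slope estimate was above 0 for 29 of 32 (47.3% of all genes), with a median slope of 0.57, against -0.02 over all genes. No gene met the criterion for level, neither among the 32 nor among all 8285, since only 4 genes in all, Psap among them, had an interval narrower than that band. The genes that did not rise are therefore ordered by slope here, and none was shown to be level.

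**Figure D1:**
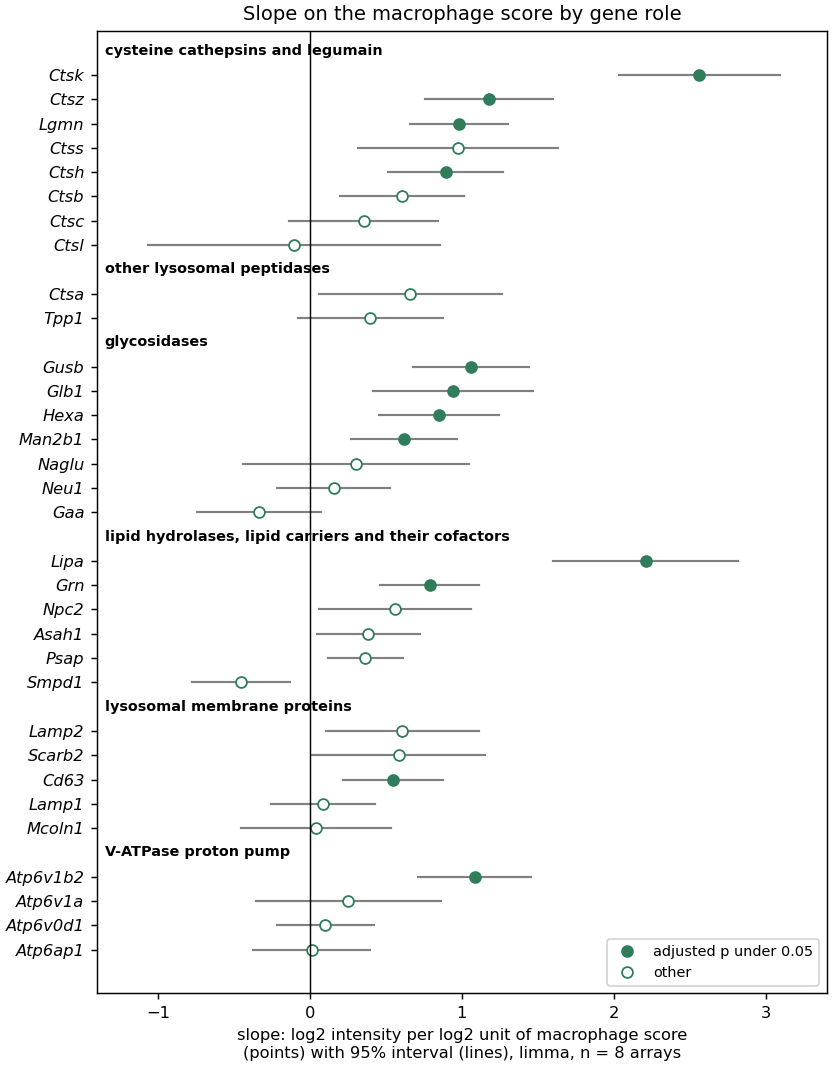
Slope of each of the 32 lysosomal genes on the macrophage score (points, log2 intensity per log2 unit of score) with its 95% interval (lines), grouped by role, n = 8 arrays. Filled points mark the 12 genes called rising. Ctsk and Lipa lie far to the right of the rest, and Smpd1, Gaa and Ctsl are the 3 genes with a slope below 0.

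The promoters of these genes were searched for the CLEAR core, since it is the element that lysosomal genes are best known to share. RefSeq promoters (GRCm38.p6, 250 bases before to 50 after the gene start) were matched for 31 of the 37 genes, and not for Ctsb, Ctsh, Asah1, Npc1, Atp6v1b2 and Atp6v0d2. The letters TCACGTG, on either strand, which contain the E-box CACGTG, were present in 11 of the 31, beside 4.29% of the promoters of 27025 genes. Among the compared genes with a promoter, they were present in 2 of 10 that rose and 7 of 18 that did not. These windows are shown because they set both rising genes with a match (Lgmn and Glb1) beside genes with slopes near 0 (Lamp1, Mcoln1 and Atp6v0d1) and Ctsa, and capitals mark the core letters, read 5′ to 3′ on the strand of the gene.
Lgmn: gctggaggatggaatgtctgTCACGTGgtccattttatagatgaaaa
Glb1: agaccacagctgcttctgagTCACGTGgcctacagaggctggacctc
Lamp1: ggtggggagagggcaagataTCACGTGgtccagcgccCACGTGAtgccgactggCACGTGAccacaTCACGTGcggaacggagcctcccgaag
Mcoln1: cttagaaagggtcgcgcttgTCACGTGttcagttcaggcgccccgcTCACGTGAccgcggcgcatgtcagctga
Atp6v0d1: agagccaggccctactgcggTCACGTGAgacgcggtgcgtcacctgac
Ctsa: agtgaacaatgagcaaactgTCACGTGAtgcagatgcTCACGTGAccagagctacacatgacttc
The Lgmn window lies at chr12:102439116-102439162 on the minus strand and the Glb1 window at chr9:114401009-114401055 on the plus strand, each with 1 site. Lamp1, at chr8:13159079-13159171 on the plus strand, held 4 sites, the most of any compared gene. Mcoln1 (chr8:3500427-3500500, plus strand) and Ctsa (chr2:164833740-164833804, plus strand) held 2 each, and Atp6v0d1 (chr8:105566041-105566088, minus strand) held 1. In Mcoln1, Atp6v0d1 and Ctsa the run TCACGTGA reads the same on both strands. Gaa, Naglu and Atp6v1a, which did not rise either, held 1 site each.

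The E-box CACGTG by itself was present in 10 of the 28 compared genes with a promoter (8.09% of all promoters), Ctsl being the gene added. The other letters searched on both strands were rarer among these genes. TCATGTG, an M-box, was present in 5 of the 28 compared genes with a promoter (4.31% of all promoters), in Grn of the rising genes and in Ctss, Ctsa, Tpp1 and Scarb2 of the others. GAGGAAGT, a PU.1 type sequence, was in Gusb, Ctsc and Ctss (3.69% of all promoters), and TGAGTCA, the AP-1 sequence, in Glb1, Neu1 and Psap (5.95%). A match is a run of letters in this window and not a measured binding site.

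Among the cysteine cathepsins and legumain, 4 of 8 rose with the score, and the median slope was 0.93. Ctsk, which encodes the cathepsin known for cutting collagen, had the steepest slope of all 32 genes. Ctsk read 10.09, 6.98, 10.56 and 8.02 on replicates 1 to 4 labelled Agt Tg and 9.52, 8.71, 9.46 and 9.27 on the Wt replicates. Its 2 highest and 2 lowest values were all on arrays labelled Agt Tg and followed the score, with the Wt arrays in between, and the span over the 8 arrays was 12.0-fold. The slope was 2.56 ± 0.25 (SE, limma adjusted p = 3.89e-05).

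Ctsz, a carboxypeptidase, read 8.98, 7.68, 8.84 and 7.81 on the arrays labelled Agt Tg and 8.78, 7.89, 8.57 and 8.77 on the Wt arrays. Its order over the 8 arrays was the order of the score itself, and its slope was 1.18 ± 0.20 (SE, limma adjusted p = 0.00219). The other Ctsz probe gave 1.13 and was called rising too. Lgmn, the asparaginyl endopeptidase that trims and activates other lysosomal proteases, read 13.18, 11.88, 13.19 and 12.39 on the arrays labelled Agt Tg and 12.43, 12.22, 12.28 and 12.68 on the Wt arrays. Replicates 1 and 3 labelled Agt Tg stood above all the others, and the slope was 0.98 ± 0.15 (SE, limma adjusted p = 0.00129). Ctsh, an aminopeptidase, read 11.21, 9.94, 11.20 and 10.57 on the arrays labelled Agt Tg and 10.83, 10.66, 11.05 and 11.07 on the Wt arrays. Replicate 2 labelled Agt Tg, the array with the lowest score, was the lowest for Ctsh, and the slope was 0.89 ± 0.18 (SE, limma adjusted p = 0.00683).

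The other cysteine cathepsins did not pass. Ctss, the cathepsin of antigen-presenting cells, had a slope as steep as Lgmn, 0.97 ± 0.31 (SE), at an adjusted p of 0.0803, and Ctsb, an abundant cathepsin of most cells, had 0.60 ± 0.19 (SE) at an adjusted p of 0.0814. These were the genes just outside the threshold, and Cd63 at an adjusted p of 0.049 was just inside. Ctsc, the dipeptidyl peptidase that activates granule proteases, had 0.35 ± 0.23 (SE). Ctsl, cathepsin L, had a slope of -0.11 with a 95% interval from -1.07 to 0.86, too wide to give a direction. Its highest value, 7.90, was on replicate 2 labelled Agt Tg, where the macrophage markers were lowest, and without that array the slope was 1.19 (adjusted p of 0.11).

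Neither of the other peptidases compared passed. Ctsa, which both cuts peptides and protects the glycosidases Glb1 and Neu1 in a shared complex, had a slope of 0.66 ± 0.28 (SE), and Tpp1, a tripeptidyl peptidase, had 0.40 ± 0.22 (SE).

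Of 7 glycosidases compared, 4 rose, and the median slope was 0.62. Gusb, beta-glucuronidase, read 11.74, 10.69, 11.93 and 10.62 on the arrays labelled Agt Tg and 11.61, 11.01, 11.62 and 11.31 on the Wt arrays. The 3 arrays with the lowest scores were the 3 lowest for Gusb, and the slope was 1.06 ± 0.18 (SE, limma adjusted p = 0.00225). Another Gusb probe rose as well (0.89), and the dimmest gave 0.81 without passing. Glb1, beta-galactosidase, had a slope of 0.94 ± 0.25 (SE, limma adjusted p = 0.0348), Hexa, the alpha subunit of beta-hexosaminidase A, 0.85 ± 0.18 (SE, limma adjusted p = 0.0118), and Man2b1, the alpha-mannosidase, 0.62 ± 0.16 (SE, limma adjusted p = 0.0348).

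The 3 glycosidases that did not pass had slopes between -0.33 and 0.31. Naglu, an enzyme of heparan sulfate breakdown, had 0.31 ± 0.35 (SE), Neu1, a sialidase, 0.16 ± 0.17 (SE), and Gaa, the acid glucosidase that breaks down glycogen, -0.33 ± 0.19 (SE). Gaa ranged 1.49-fold over the 8 arrays, where Gusb ranged 2.48-fold.

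In the group of lipid hydrolases, lipid carriers and their cofactors, 2 of 6 rose. Lipa, the acid lipase that frees fatty acids and cholesterol from lipids taken up by the cell, read 9.39, 6.97, 9.31 and 6.76 on the arrays labelled Agt Tg and 8.36, 7.72, 7.51 and 8.69 on the Wt arrays. Its 4 extremes were again the arrays labelled Agt Tg, high on replicates 1 and 3 and low on replicates 2 and 4, with a span of 6.17-fold. The slope was 2.21 ± 0.28 (SE, limma adjusted p = 0.000332). Grn, the precursor of the lysosomal granulins, read 12.86, 12.03, 12.82 and 11.94 on the arrays labelled Agt Tg and 12.43, 12.11, 12.11 and 12.60 on the Wt arrays. Grn had the same arrays at its extremes over a smaller span, 1.89-fold, and its slope was 0.79 ± 0.15 (SE, limma adjusted p = 0.00565).

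Asah1, acid ceramidase, had a slope of 0.39 ± 0.16 (SE), Psap, the precursor of the saposin activators of sphingolipid breakdown, 0.37 ± 0.12 (SE, adjusted p of 0.0832), and Npc2, a soluble cholesterol carrier, 0.56 ± 0.23 (SE). None of the 3 passed. Smpd1, acid sphingomyelinase, had the lowest slope of the 32, -0.45 ± 0.15 (SE) at an adjusted p of 0.0982. Its 3 probes gave -0.45, -0.53 and -0.39.

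Of the 5 membrane proteins compared, only Cd63 rose at adjusted p under 0.05, with 0.55 ± 0.15 (SE, limma adjusted p = 0.049). Cd63 is a tetraspanin of late endosomes, and its dimmer probes had slopes of 0.57 and 0.59 without passing. Lamp2, the glycoprotein that also serves chaperone-mediated autophagy, had 0.61 ± 0.23 (SE), and its other probes gave 0.36 to 0.56. Scarb2, the receptor that carries glucocerebrosidase to the lysosome, had 0.59 ± 0.26 (SE). Lamp1, the most used marker protein of lysosomes, read 13.59, 13.53, 13.66 and 13.36 on the arrays labelled Agt Tg and 13.06, 13.32, 13.61 and 13.44 on the Wt arrays. Its values had no clear order by score, and its slope was 0.08 with a 95% interval from -0.26 to 0.43. Mcoln1, the calcium channel of the lysosomal membrane, read 7.19, 7.01, 7.07 and 6.89 on the arrays labelled Agt Tg and 6.83, 7.24, 6.80 and 6.90 on the Wt arrays. High and low values of Mcoln1 were spread over both ends of the score, and its slope was 0.04 with an interval from -0.45 to 0.54.

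Of the 4 proton pump genes compared, 1 rose. Atp6v1b2, the B2 subunit of the part that binds ATP, read 11.51, 10.24, 11.62 and 10.72 on the arrays labelled Agt Tg and 11.47, 10.88, 10.70 and 11.31 on the Wt arrays. It was high on the 4 arrays with the highest scores and low on the other 4, and its slope was 1.08 ± 0.17 (SE, limma adjusted p = 0.00166). Atp6v1a, the catalytic A subunit, had 0.25 ± 0.28 (SE) and did not pass, and no difference in slope between subunits was tested.

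Atp6v0d1, the d1 subunit of the membrane part found in most cells, read 12.23, 12.06, 12.17 and 12.03 on the arrays labelled Agt Tg and 12.18, 12.26, 11.90 and 12.04 on the Wt arrays. Its range was the smallest of the 32 genes, 1.28-fold, and its slope was 0.10 with an interval from -0.22 to 0.42. The other Atp6v0d1 probes gave 0.12, -0.13 and 0.00. Atp6ap1, an accessory subunit, read 12.34, 12.18, 12.22 and 12.32 on the arrays labelled Agt Tg and 12.27, 12.23, 12.77 and 12.10 on the Wt arrays. Replicate 3 of Wt stood above the rest, and the slope of 0.01 (interval from -0.37 to 0.40) was the closest to 0 of all 32.

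**Figure D2:**
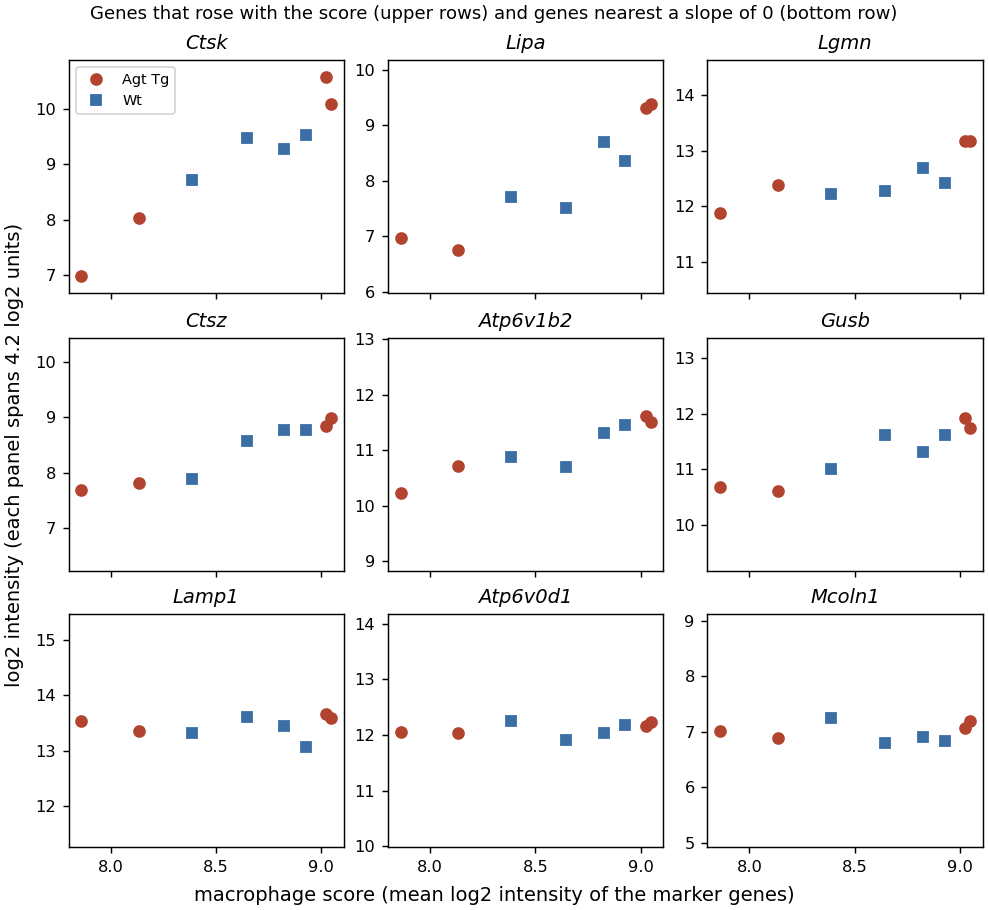
Log2 intensity of 9 genes on each array (vertical axes, each spanning the same number of log2 units) against the macrophage score (horizontal axis), with Agt Tg as circles and Wt as squares, 4 arrays each. Ctsk and Lipa climb most steeply, with slopes of 2.56 and 2.21. Lamp1, Atp6v0d1 and Mcoln1 have slopes near 0, at 0.08, 0.10 and 0.04, and none of them was shown to be level.

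The 12 rising genes were chosen by their slope, so their mean follows the score by that choice and is given as a description. The mean log2 intensity was 11.20, 9.83, 11.18 and 10.08 on replicates 1 to 4 labelled Agt Tg and 10.73, 10.28, 10.61 and 10.80 on the Wt replicates. The arrays labelled Agt Tg held the 2 highest and the 2 lowest means, and the Wt arrays the middle ones, which is the arrangement of the score. Within each group taken alone, 19 of the 32 genes had a positive slope in both, beside 30.4% of all genes. Ctsk had slopes of 2.75 within the arrays labelled Agt Tg and 1.32 within Wt, Lipa 2.29 and 1.70, and Lgmn 1.04 and 0.61. A test of the difference in slope between the groups gave 0 calls among the 32 and 0 among all genes at adjusted p under 0.05 in limma, and at unadjusted p under 0.05 it gave 1 of the 32, Ctss (1.75% of all genes).

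**Figure D3:**
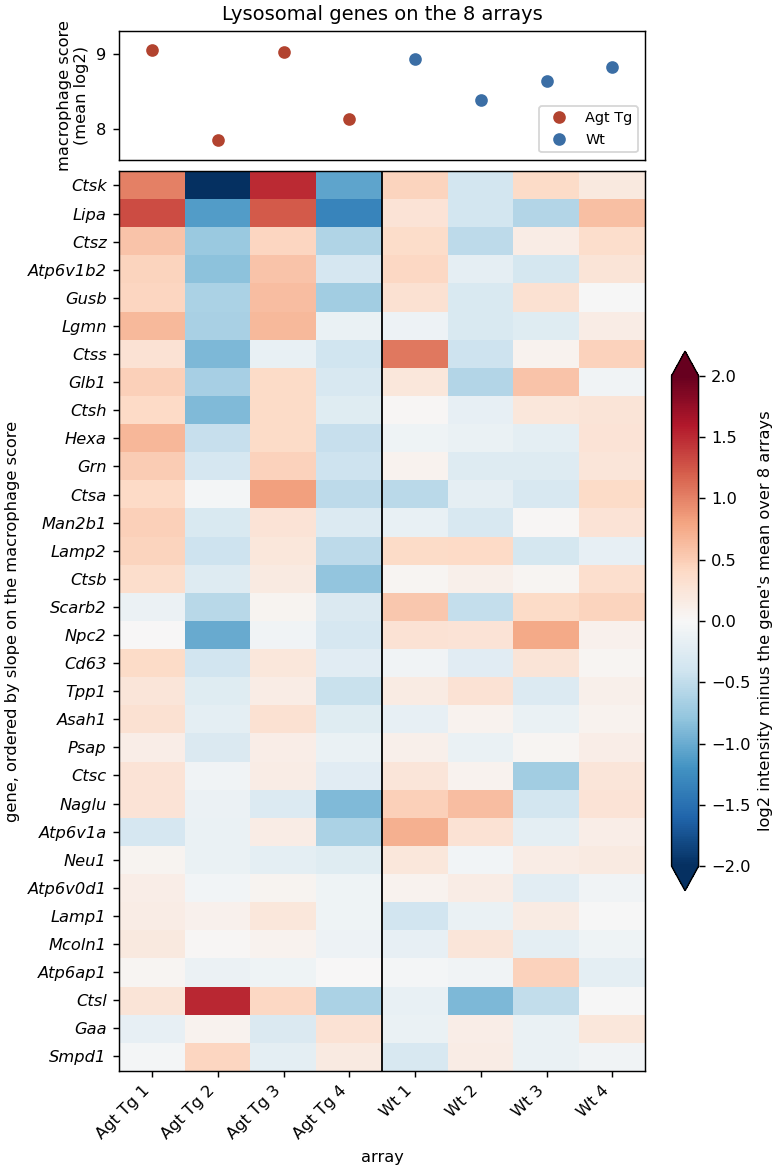
Macrophage score of each array (top, mean log2 intensity) above the log2 intensity of the 32 genes minus each gene's mean over the 8 arrays (colour, red above and blue below), with genes ordered by slope. In most of the upper rows replicates 1 and 3 labelled Agt Tg are red and replicates 2 and 4 are blue, with Wt mostly paler. Ctss and Glb1 are highest on a Wt array, replicate 1 and replicate 3. The lowest rows show no such order, and in Smpd1, at the bottom, replicates 2 and 4 labelled Agt Tg are highest.

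Adipocyte markers ran the other way across the same arrays. Their mean was 10.56, 11.13, 10.43 and 11.06 on the arrays labelled Agt Tg and 10.65, 11.09, 10.60 and 10.61 on the Wt arrays, and the 3 arrays with the highest adipocyte mean were the 3 with the lowest macrophage score. Over the 8 arrays the score and the adipocyte mean had a correlation of -0.92. A gene's rise with the score therefore cannot be told apart here from a rise as adipocyte RNA fell. Of 13 adipocyte markers compared, 5 fell with the score at adjusted p under 0.05, among them Slc2a4, the insulin-responsive glucose transporter, with a slope of -1.34 ± 0.23 (SE), and Fabp4, the fatty acid binding protein, with -1.90 ± 0.36 (SE). Of 5 markers of lipid-associated macrophages, 4 rose, with a median slope of 2.66. Trem2, the lipid-sensing receptor of these cells, had a slope of 2.76 ± 0.20 (SE) and was 8.79-fold apart between its highest and lowest array. Among the other cell types, 2 of 6 smooth muscle and pericyte markers fell, and 1 of 12 fibroblast and progenitor markers rose and 1 fell. Rising was called for 1 of 8 T and NK cell markers and 1 of 3 neutrophil markers. No marker of endothelial, B and plasma, mast, dendritic or mesothelial cells was called. Over all genes 4.38% rose and 2.28% fell.

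The calls of rising genes depended on the arrays and terms in the fit. Without replicates 2 and 4 labelled Agt Tg, the arrays farthest from the median score, 0 of 32 genes were called rising in limma (1 of all genes, Tph2) and 6 at unadjusted p under 0.05 (273 of all genes), while 20 of 32 slopes were positive (19 of the 29 that were positive on all 8 arrays, and Ctsl) and the median of the 32 was 0.42. With the adipocyte marker mean as a further term, the count was again 0 of 32 (1 of all genes, Itgad) and 10 at unadjusted p under 0.05 (701 of all genes), with 25 positive slopes and a median of 0.61. Why the calls were lost was not tested. Leaving out replicate 2 labelled Agt Tg gave 5 calls (1.58% of all genes). There were 6 without replicate 1 or 3 of that group (2.45% and 2.12% of all genes) and 15 without Wt replicate 3 (7.33% of all genes). Ctsk, Lipa, Ctsz and Gusb were called rising without any single array. Lgmn and Atp6v1b2 were called in 7 of the 8 cases, Grn in 6, Ctsh and Hexa in 5, Glb1 and Man2b1 in 2 and Cd63 in 1.

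Between the groups, each lysosomal gene was tested singly and none passed. At adjusted p under 0.05, 0 of 32 differed (0 of all 8285 genes), and the lowest adjusted p was 0.384 among the 32 and 0.224 over all genes. These values are for the brightest probe of each gene. The dimmest Lamp2 probe gave -0.61 ± 0.16 (SE, limma adjusted p = 0.348), while the brighter Lamp2 probes gave -0.13, -0.04 and 0.17. At unadjusted p under 0.05, 0 of 32 were higher in the arrays labelled Agt Tg (3.93% of all genes) and 1 was lower (5.35% of all genes). The median log2 difference was -0.07, against 0.01 over all genes, with 13 genes higher and 19 lower. Median scaling of the arrays in place of quantile normalization moved the median of all genes to -0.12 and that of the 32 to -0.17, with 26 lower. Without replicate 2 labelled Agt Tg the median of the 32 was 0.09 with 11 lower, without replicate 4 of that group 0.03 with 13 lower, and without replicate 1 of that group -0.19 with 26 lower. Array weights gave 0.03 with 13 lower, so that the split of signs had no settled direction.

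Npc2 was the gene lower at unadjusted p and also the only 1 of the 32 whose groups did not overlap, where 3.05% of all genes did not overlap with Agt Tg higher and 3.31% with Agt Tg lower. Npc2 read 9.15, 8.13, 9.07 and 8.80 on the arrays labelled Agt Tg and 9.42, 9.41, 9.90 and 9.23 on the Wt arrays. Every array labelled Agt Tg lay below every Wt array, by a narrow margin at the closest pair, and replicate 2 was far below the rest. The means were 8.79 ± 0.46 for Agt Tg and 9.49 ± 0.29 for Wt (SD, n = 4 each), a log2 difference of -0.70 ± 0.23 (SE) or 1.63-fold lower. By exact permutation the two-sided p was 0.0286, the lower bound for this design, which groups that do not overlap always give, so it adds nothing to the lack of overlap. The limma adjusted p was 0.384, so the difference did not pass over all genes.

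The largest difference upward was that of Ctsl, 6.64, 7.90, 6.81 and 5.76 on the arrays labelled Agt Tg and 6.24, 5.48, 5.89 and 6.38 on the Wt arrays. Replicate 4 labelled Agt Tg lay among the Wt arrays, so the groups overlapped, and the log2 difference of 0.78 had a 95% interval from -0.03 to 1.59 (adjusted p of 0.515). On the negative side, Ctss followed Npc2 with -0.58 (interval from -1.29 to 0.13), then Naglu with -0.50 (interval from -1.12 to 0.12) and Atp6v1a with -0.46 (interval from -0.98 to 0.05). The 2 steepest genes had the widest intervals between the groups. Ctsk averaged 8.91 ± 1.70 on the arrays labelled Agt Tg and 9.24 ± 0.37 on the Wt arrays (SD, n = 4 each), and its interval ran from -1.66 to 1.00. For Lipa the means were 8.11 ± 1.44 for Agt Tg and 8.07 ± 0.55 for Wt (SD, n = 4 each), with an interval from -1.16 to 1.24. Intervals were narrower for Atp6v0d1 (from -0.25 to 0.30) and Lamp1 (from -0.12 to 0.47), which had slopes near 0. This did not hold for every slope near 0, since Ctsl, with a slope of -0.11, had the wide interval given above.

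**Figure D4:**
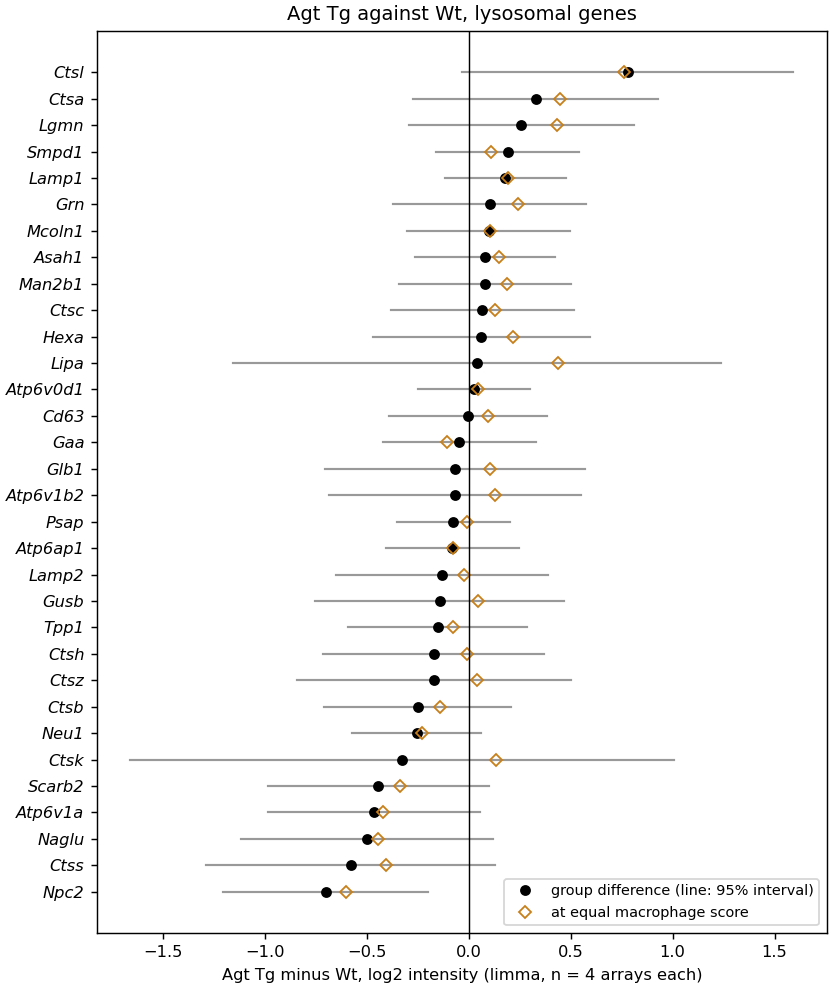
Log2 difference, arrays labelled Agt Tg minus Wt, for the 32 lysosomal genes (black points) with 95% intervals (lines), and the same difference at equal macrophage score (open diamonds), n = 4 arrays each. Npc2 at -0.70 has the only interval that leaves out 0, and Ctsk and Lipa have the widest.

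At equal macrophage score, the difference between the groups again passed for 0 of the 32 genes, where it passed for 2 of all genes (0.0241%), Itgad and Retnla, neither a lysosomal gene and both named after their values were seen. At unadjusted p under 0.05 it passed for 2 of the 32, Lgmn and Npc2 (12.2% of all genes). The median difference of the 32 was then 0.07, against 0.01 over all genes, with 19 higher and 13 lower. Ctsk moved to 0.13 and Lipa to 0.43 in this comparison, while Npc2 stayed at -0.60 ± 0.19 (SE, adjusted p of 0.225) and Ctsl at 0.76 ± 0.37 (SE, adjusted p of 0.414). Lgmn had the lowest adjusted p of the 32 at 0.184, with a difference of 0.43 ± 0.12 (SE). Agt, the gene that checked the labels, itself fell with the score (slope of -1.98 ± 0.22, SE, limma adjusted p = 7.97e-05). At equal score its difference was -0.92 ± 0.18 (SE, limma adjusted p = 0.0944), so it was not higher on the arrays labelled Agt Tg there either.

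Beyond these genes, 71 further lysosomal and V-ATPase genes were listed, and 53 of them were compared. In this wider set 7 of 53 rose with the score (13.2%, beside 4.38% of all genes), and the median slope was 0.20. Falling was called for 0 (2.28% of all genes), and 4 fell at unadjusted p under 0.05 in limma (9.46% of all genes). The count was 4 without replicate 2 labelled Agt Tg (1.58% of all genes), 15 without Wt replicate 3 (7.33%) and 17 with array weights (9.90%). Of 15 further V-ATPase genes compared, 2 rose. Tcirg1, the a3 subunit known from osteoclasts, read 9.79, 7.41, 9.88 and 8.15 on the arrays labelled Agt Tg and 8.79, 8.32, 8.98 and 9.47 on the Wt arrays, and its slope was 1.91 ± 0.24 (SE, limma adjusted p = 0.000227). Atp6v1d, of the rotor stalk, had 0.92 ± 0.22 (SE, limma adjusted p = 0.0201). The values of Tcirg1 again had replicates 1 and 3 labelled Agt Tg at the top and replicates 2 and 4 at the bottom. The a1 subunit gene Atp6v0a1, at 0.85 ± 0.27 (SE, adjusted p of 0.0823), did not pass.

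Among the further membrane proteins 4 of 16 rose (25%, beside 4.38% of all genes), and the steepest was Slc15a3. Slc15a3, a peptide and histidine transporter, had a slope of 2.33 ± 0.21 (SE, limma adjusted p = 2.18e-05), Tpcn2, a cation channel of endolysosomes, 1.73 ± 0.18 (SE), Slc11a1, the metal transporter of phagosomes, 1.27 ± 0.23 (SE), and Laptm5, a membrane protein of blood cells, 0.92 ± 0.17 (SE). Among further enzymes and carriers 1 of 22 rose (4.55%), near the share over all genes. It was Pla2g15, the lysosomal phospholipase, with 0.66 ± 0.15 (SE, limma adjusted p = 0.0178). Of 12 MiT/TFE regulators and autophagy adaptors 1 rose (8.33%). It was Gpnmb, a membrane glycoprotein that is also on the list of lipid-associated macrophage markers, with 3.04 ± 0.24 (SE). Tfe3, a transcription factor of the MiT/TFE family, had 0.55 ± 0.37 (SE) and did not pass. Of 4 cathepsin inhibitors compared, 1 rose (25%), Cstb, cystatin B, with 0.78 ± 0.16 (SE, limma adjusted p = 0.0079).

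No gene of these further lists passed between the groups. Groups did not overlap for Arsb, a sulfatase (log2 difference 0.46), Ppt2, a thioesterase (0.54), and Cln6, a membrane protein of the endoplasmic reticulum needed for lysosomal enzyme transfer (0.35), all with Agt Tg higher, and for the V-ATPase subunit Atp6v1g1 with Agt Tg lower (-0.50). These are 3 and 1 of the 53 genes, beside 3.05% of all genes that did not overlap with Agt Tg higher and 3.31% with Agt Tg lower. Their adjusted p ran from 0.419 to 0.513.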

How the data were processed

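Total RNA of 4 Agt Tg and 4 Wt samples was read on 8 Illumina arrays. The authors deposited linear bead intensity values before normalization with a detection p-value per probe, and another table holding log2 values from lumi, of unstated version, which matched quantile normalized log2 intensity (median difference 0.00268). Groups and replicate numbers came from the labels, and 0 value columns were left unmapped. Probes were named through the platform annotation and Entrez IDs against RefSeq GRCm38.p6 (of 25696 probes 23978 had 1 symbol and 1718 none, and 0 symbols changed). 1 blank row and 1 probe of the second table alone were left out.

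With limma 3.58.1 in R 4.3.3, neqc was applied to the intensities: normexp background correction, with negative controls taken from the detection p-values, then an offset of 16 and quantile normalization. Probes with detection p under 0.05 on at least 4 of 8 arrays were kept (11624, 45.2%), and the brightest of a gene's kept probes stood for the gene. lmFit and eBayes with trend were fitted on group (Agt Tg minus Wt), and on macrophage score plus group, with Benjamini-Hochberg adjustment over kept probes. The number of arrays limits the precision, and background correction and offset make dim probes uncertain. Exact permutation used all 70 assignments. The scripts were tested on simulated data.

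The members, gene lists and tests were chosen with earlier results of these data known. Genes given on every array were up to 8 with the smallest p among those rising, the 4 slopes nearest 0 (none was level), those whose groups did not overlap, and Lamp1 and Atp6v0d1 as textbook genes; Cd68, Ctsd and Atp6v0d2 were in the rule without a comparison. Ctsl was given after its values were seen. Of other lists, up to 4 genes by slope and 2 by group difference could be named. Alternatives were the authors' log2 values, leaving out each array, omitting the background correction, an offset of 50, scaling by medians, the mean of probes, a stricter detection filter (p under 0.01 on 8 arrays) or none, robust or untrended eBayes, weighted arrays, a replicate block, a score from defining markers and no group term. Added after seeing the data were leaving out the 2 arrays farthest from the median score, an adipocyte term, and the interaction of score and group.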

Additional observations from a re-analysis of the deposited data

Results flagged for a closer look

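Of 70 sets of 4 arrays examined for a single array far from the other 3, 2 held such an array, where chance gives about 5%. Scarb2, the receptor that delivers glucocerebrosidase to lysosomes, read 6.20 on Wt replicate 2, while the remaining Wt arrays lay between 7.07 and 7.21. The mean of the adipocyte markers was 11.09 on the same array, Wt replicate 2, where the remaining Wt arrays had 10.60 to 10.65. That array also had the lowest macrophage score of the Wt group, 8.39, and the part of either in the other was not tested.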

How the results depend on the processing

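With 8 arrays, and most of the score's spread within the arrays labelled Agt Tg, the slopes rest on few samples, and dim probes depend on background correction. The count of 12 rising lysosomal genes was 8 to 18 under the other ways of processing all 8 arrays (1.90% to 9.90% of the genes compared in each). It was 5 to 15 when single arrays were left out (1.58% to 7.33% of all genes). Without the 2 arrays farthest from the median score, and with the adipocyte mean as a further term, it was 0 (1 of all genes in each). The cause of the losses was not tested. Of these 12 genes 11 were called rising on the authors' log2 values, 9 under median scaling and 12 with array weights. The count between the groups was 0 in every alternative run. With group means removed, arrays of the same replicate number had correlations between the groups of 0.33, 0.39, -0.04 and -0.08 for numbers 1 to 4. Correlations of different numbers ran from -0.32 to 0.24. Numbers 1 and 2 lay above that range and numbers 3 and 4 within it, so the values do not settle whether replicate numbers pair the arrays. With the replicate block 8 of the lysosomal genes rose (6 of the 12, beside 2.70% of all genes). At equal score under this block 1 passed, Lgmn (0.49 ± 0.11, SE, limma adjusted p = 0.035). The share of all genes that passed there was not counted, and without the block the limma adjusted p of Lgmn was 0.184.

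The score difference between the groups was -0.36 to 0.040 when single arrays were left out and turned positive without replicate 2 labelled Agt Tg. In the same settings, group differences of genes that did not pass changed sign. They ran from -0.39 to 0.48 for Lipa, -0.048 to 0.26 for Grn, -0.039 to 0.082 for Atp6v0d1, -0.88 to 0.31 for Ctsk, -0.27 to 0.19 for Atp6v1b2, -0.39 to 0.044 for Ctsz, -0.37 to 0.067 for Gusb, -0.33 to 0.095 for Ctsh and -0.16 to 0.060 for Atp6ap1. With array weights they were 0.17 for Ctsk, 0.0045 for Atp6v1b2, 0.079 for Gusb, 0.0057 for Ctsh and 0.034 for Atp6ap1. Median scaling gave -0.15 for Lipa, -0.11 for Mcoln1 and -0.054 for Atp6v0d1, and the mean of probes gave 0.11 for Gusb.

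Slopes changed sign as well, both near 0 and farther from it. Ctsl had 1.19 without replicate 2 labelled Agt Tg, 1.60 without the 2 farthest arrays, 0.089 with median scaling, 0.14 with the replicate block and -0.62 to 1.19 when single arrays were left out. Atp6ap1 had -0.00051 without background correction, -0.13 with median scaling, -0.49 with the replicate block, -0.11 with the defining-marker score, -0.20 without the 2 farthest arrays, -0.49 with the adipocyte term and -0.081 to 0.052 when single arrays were left out. Mcoln1 had -0.68 without the 2 farthest arrays and -0.058 to 0.15 when single arrays were left out. Lamp1 had -0.0025 with the defining-marker score, -0.35 without the 2 farthest arrays and -0.52 with the adipocyte term. Without the 2 farthest arrays Atp6v0d1 had -0.16, Npc2 -0.27, Lamp2 -0.22, Asah1 -0.24, Tpp1 -0.13 and Ctsa -0.038. With the adipocyte term Scarb2 had -0.38 and Glb1, among the 12 called rising, had -0.081. In these settings 20 and 25 of the 32 slopes were positive.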
